A study of Caenorhabditis elegans with 24 samples.

Results

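The comparison described here set wild-type Caenorhabditis elegans on adult day 11 against the same strain on adult day 1, the longest span of wild-type ageing in the series. Its members were taken by label: the 3 libraries of strain N2 at day 11 and the 3 of N2 at day 1, which are 6 of the series' 24 libraries. The other libraries were N2 at days 4 and 7 and, at all 4 ages, worms carrying daf-2(e1370), a reduced-function allele of the insulin/IGF-1 receptor gene. N2 is the standard laboratory wild type, a self-fertilising hermaphrodite. In every group eggs were released by bleaching, larvae hatched without food during 16 h in S-basal buffer at 20°C, and animals then grew on OP50 bacteria. From the fourth larval stage they received 50 µM FUDR, an inhibitor of DNA synthesis that keeps progeny from hatching. All groups received it, but older worms had it for longer, so age and length of exposure cannot be told apart. Whole animals were extracted, ribosomal RNA was depleted from the total RNA, and the libraries kept strand information.

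An adult worm no longer moults, and nearly all of its somatic cells have stopped dividing, so the same cells age throughout adult life. The cuticle, the gut, the muscles, neurons and the germline all contribute RNA to a whole-body sample. Worms of this species live only weeks, and by the later age they have largely stopped laying eggs and move and feed less.

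Expected counts per gene, the values the authors deposited, summed to 26686740, 27830581 and 32655703 in the day 1 libraries and to 31836306, 23644502 and 31396899 in the day 11 libraries. Levels are given as CPM, a gene's count relative to its library's TMM-scaled total, in the order of libraries 1, 2 and 3. Each change is a log2 fold change of day 11 over day 1 with its standard error after the ± sign (n = 3 and 3 throughout), and a gene was called, written as rose or fell, when its adjusted p in edgeR's quasi-likelihood test was below 0.05. The labels do not say that the 3 libraries of an age came from separate cultures, so these p-values measure the spread between the samples, which may be technical. Ribosomal RNA genes held more of the counts in the libraries numbered 3 (13.7% at day 1 and 11.8% at day 11) than in the other 4 (6.55% to 8.83%). Genes that define neurons, intestine, epidermis, muscle, pharynx, germline, sperm, oocytes and other tissues were detected at both ages. In bulk RNA, fewer cells of a type and less RNA per cell cannot be told apart.

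Of 16698 genes tested, 3752 rose (22.5%) and 3206 fell (19.2%), so 41.7% of all tested genes were called, and that share is the background for the counts of family members given here. Large changes were more often rises: 1166 genes rose at least 4-fold (6.98%) and 468 fell at least 4-fold (2.8%). The libraries of the 2 ages did not overlap for 8164 genes (48.9%), which is the background for each gene described as not overlapping. The balance differed with the level of the gene. Among genes with a mean of 1 to 10 CPM over the 6 libraries, 30.8% rose and 13.2% fell, whereas among those above 100 CPM 10.5% rose and 29% fell. The shares were 23% and 4.23% under 1 CPM, and 19.5% and 30.8% from 10 to 100 CPM. The median change of all genes was 0.10, against 0.28 under upper-quartile scaling and 0.33 when library size alone was used. Rises made up 53.9% of the calls in the fit used here and 65.4% and 69.5% under those scalings. The number of calls was 6958 in the fit used here, 8964 without the libraries numbered 3 and 9491 with the replicate number as a block. More genes were above 0 at day 11 (19902, 19292 and 20536) than at day 1 (18596, 18073 and 18967), and the ages did not overlap.

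**Figure D1:**
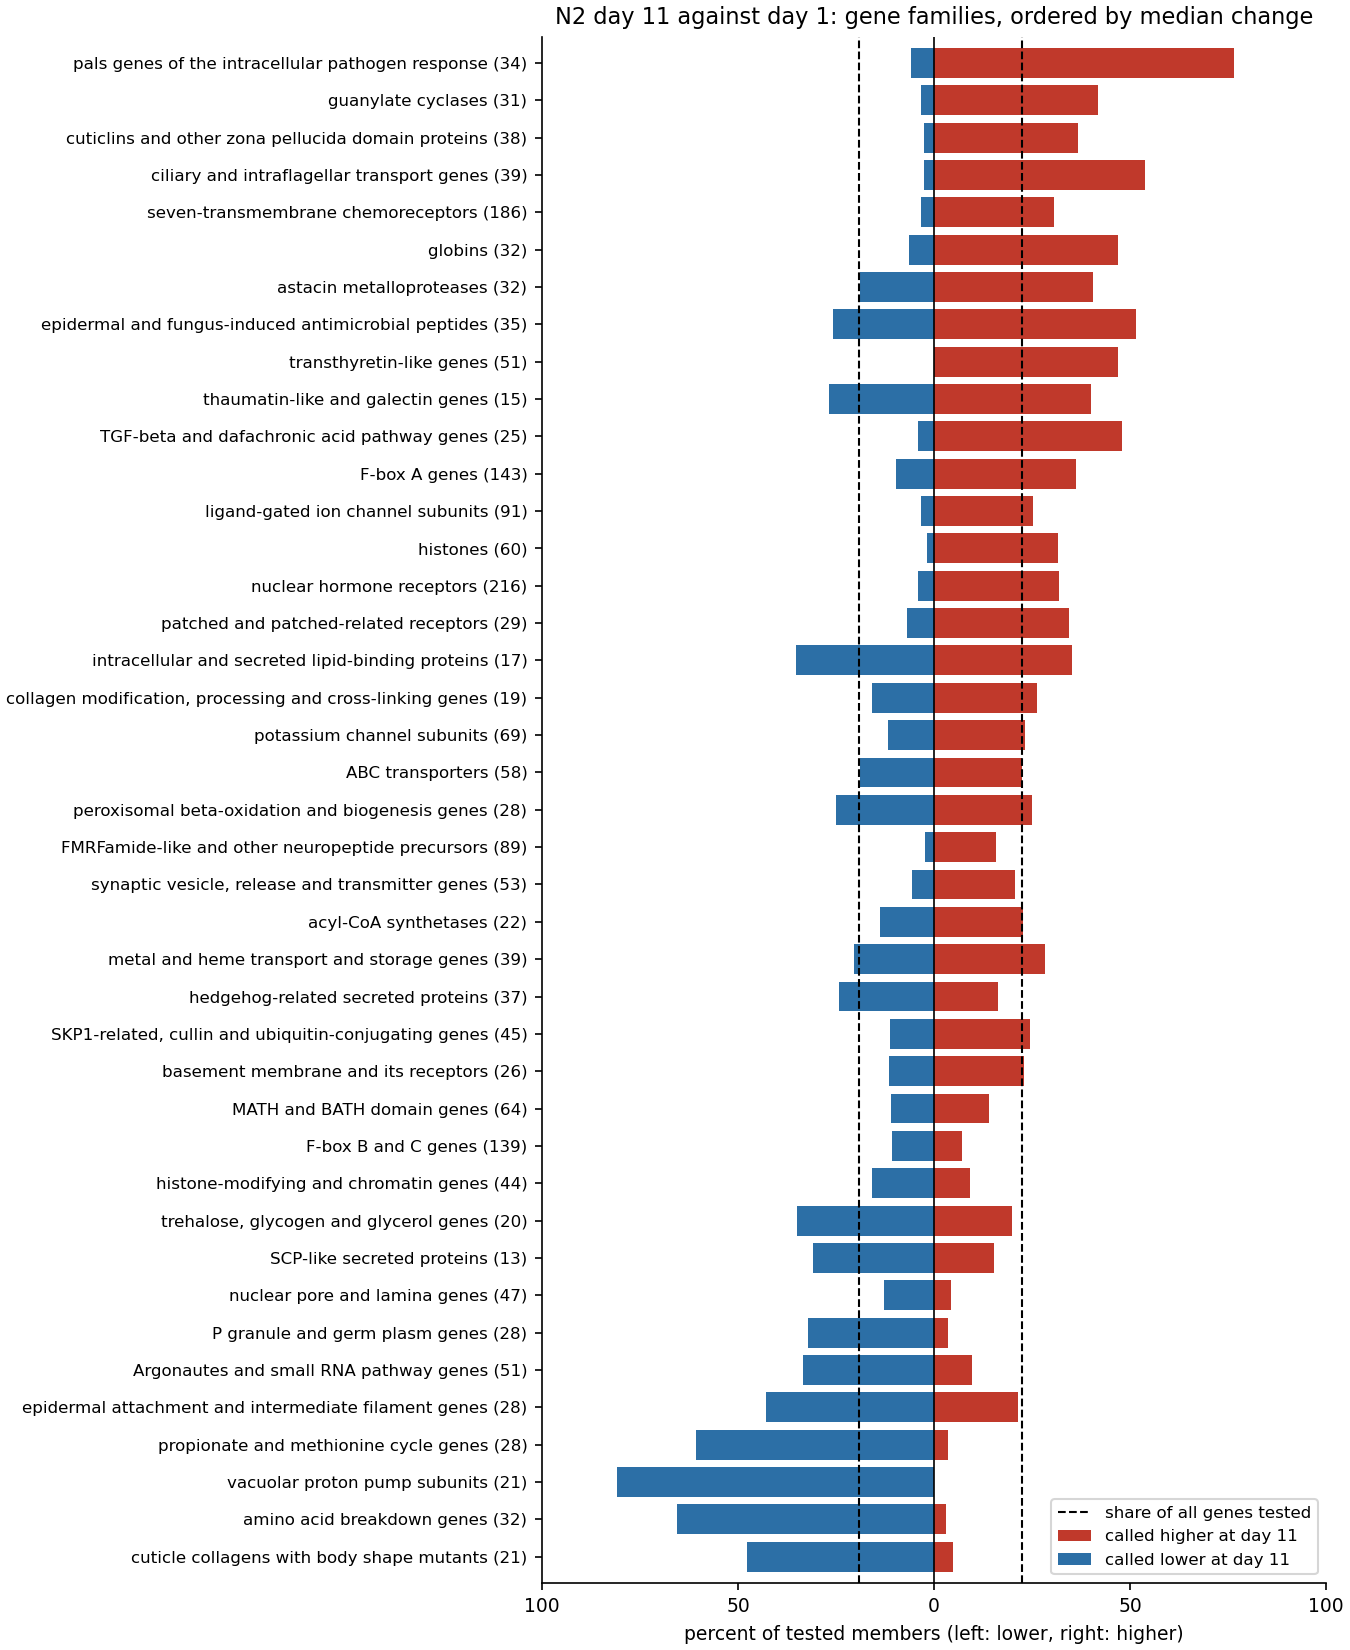
Share of the tested members of 41 gene families called lower (blue, to the left) or higher (red, to the right) at day 11, ordered by the median log2 change, with the number of tested members in brackets. Dashed lines mark the shares over all genes tested, 19.2% lower and 22.5% higher. The pals genes reach furthest to the right (76.5%) and the subunits of the vacuolar proton pump furthest to the left (81%). The pals share includes 3 members without a day 1 count, which could not have fallen.

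The outer coat was where the largest falls lay. Among coding genes whose ages were fully apart and whose mean reached 10 CPM, 11 of the 12 largest falls were cuticle collagens, the proteins that are secreted by the epidermis and cross-linked into the cuticle. The exception was grd-3, a groundhog-like gene of the hedgehog-related family. Transcripts of col-93 were at 4012, 2361 and 2746 CPM at day 1 and at 0.41, 0.419 and 0.535 CPM at day 11, and those of col-20 at 4363, 2706 and 4003 CPM and then 5.68, 8.21 and 11.5 CPM. Both fell with no overlap between ages (log2 -12.69 ± 0.70, adjusted p = 1.51e-10, and -8.77 ± 0.62, adjusted p = 1.92e-09). On chromosome V (positions 13200982 to 13202189, WBcel235), col-160 was at 2070.0, 1331 and 1842 CPM and fell to 11.9, 9.47 and 21.8 CPM, a 121-fold drop. The genes col-81, col-129, col-139 and col-142 also fell, but their day 1 libraries were far apart, with library 1 between 341 and 938 CPM and library 2 between 28.3 and 199.5 CPM.

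Collagens known from mutants with a changed body shape were also lower. Of 21 tested, 10 fell (47.6%) and dpy-14 alone rose, with a median of -1.47. The fall of bli-6, whose mutants have blistered cuticles, took it from 25.8, 8.97 and 9.99 CPM to 0.117, 0.0419 and 0.327 CPM (log2 -6.41 ± 0.57, adjusted p = 4.35e-08). In the other direction dpy-14 went from 1.89, 1.65 and 2.28 CPM to 25.9, 10.2 and 30 CPM (log2 3.50 ± 0.90, adjusted p = 0.00403), higher in every old library. Rises numbered 2 without day 1 library 3, and 3 with the replicate number as a block. Levels of col-183, a further collagen gene on the X chromosome, were 0, 0.0413 and 0.199 CPM at day 1 and 61.5, 33.4 and 134 CPM at day 11.

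Cuticlins and other zona pellucida domain proteins, which line the cuticle and the body's tubes, rose in more cases than they fell. Of 38 tested (41 are annotated), 14 rose (36.8%) and 1 fell, cutl-18, and the median was 1.19. Their median level was 1.1 CPM, and among all genes of 1 to 10 CPM 30.8% rose and 13.2% fell. The rise of cutl-23 took it from 1.64, 1.94 and 2.08 CPM to 7.55, 12.2 and 6.6 CPM (log2 2.21 ± 0.41, adjusted p = 0.000254). The count of rises was 9 without any one of day 1 library 1, day 1 library 2 or day 11 library 3, and 24 with the block. Among 32 tested astacin metalloproteases, enzymes that include moulting collagenases, 13 rose (40.6%) and 6 fell (18.8%). The rises included nas-28, at 0.966, 0.91 and 1.59 CPM and then 8.84, 13.2 and 11.2 CPM (log2 3.25 ± 0.33), and nas-11, at 85.8, 79.3 and 121.8 CPM and then 361, 338 and 368 CPM (log2 1.90 ± 0.23). Rises numbered 8 without day 11 library 2 and falls 3 without day 1 library 3. Of 19 genes that modify or cross-link collagen, 5 rose (26.3%) and 3 fell (15.8%), near the shares over all genes (22.5% and 19.2%). The prolyl 4-hydroxylase subunit genes dpy-18 (log2 1.01 ± 0.18) and pdi-2 (log2 0.94 ± 0.19) were among the rises, which numbered 3 without day 1 library 2 and 9 with the block.

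Secreted hedgehog-related proteins and patched-related proteins, which in worms act in moulting and in the cuticle, differed in their counts. Of 37 tested hedgehog-related genes, 9 fell (24.3%) and 6 rose (16.2%), against 19.2% and 22.5% of all genes. The median level of the tested genes was 0.753 CPM, and among all genes under 1 CPM 4.23% fell and 23% rose. A further 22 did not pass the filter on low counts. The largest fall was that of grd-3, from 219, 149 and 127 CPM to 2.14, 0.628 and 0.654 CPM (log2 -7.14 ± 0.59, adjusted p = 1.49e-08). Another groundhog-like gene, grd-5, fell from 81, 54 and 63.7 CPM to 2.05, 1.26 and 2.17 CPM (log2 -5.17 ± 0.42). Summed over the family the level was 258.8 to 379 CPM at day 1 and 54.8 to 68.1 CPM at day 11, with no overlap. The median change was 0.12 and turned negative without day 1 library 2 (-0.18), day 11 library 3 (-0.35) or all libraries numbered 3 (-0.12), in a fit of the compared groups alone (-0.29) and with a filter of 1 CPM in 3 libraries (-0.89). Rises numbered 3 without day 1 library 1. The median level of 29 patched-related genes was 6.28 CPM, and among all genes of 1 to 10 CPM 30.8% rose and 13.2% fell. Of these 29 genes 10 rose (34.5%) and 2 fell (6.9%, and 5 genes with the block). The strongest of them, ptr-22 (chromosome V, positions 18919221 to 18931379), was at 0.756, 0.827 and 1.19 CPM and then 30.3, 32.1 and 25.5 CPM (log2 4.97 ± 0.50, adjusted p = 1.92e-07). The 10 rises became 6 without day 1 library 2.

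Genes that attach tissues to the cuticle and genes of the basement membrane differed in their counts. Of 28 epidermal attachment and intermediate filament genes, 12 fell (42.9%) and 6 rose, among the falls the filament genes ifc-1 (from 59, 17.1 and 15.2 CPM to 1.02, 0.712 and 1.19 CPM, log2 -4.94 ± 0.63) and mua-6 (from 101, 67.1 and 96.3 CPM to 21.4, 17.8 and 20.1 CPM, log2 -2.16 ± 0.23). Without day 1 library 1 or 2 the rises numbered 2 or 3. In the basement membrane list (26 genes) 6 rose (23.1%) and 3 fell (11.5%), against 22.5% and 19.2% of all genes. The perlecan gene unc-52 fell from 136, 117 and 221 CPM to 27.6, 61.8 and 37 CPM (log2 -1.91 ± 0.34), while the dystroglycan gene dgn-1 rose from 3.99, 5.04 and 9.86 CPM to 22.4, 46.5 and 31.9 CPM (log2 2.41 ± 0.48). The list's rises were 3 without day 1 library 2, and its falls 6 with the block. Of 8 markers of the epidermis 3 fell, the collagen genes col-19, rol-6 and bli-1, and none was at 0. The markers summed to 1855 to 3314 CPM at day 1 and to 140.1 to 196 CPM at day 11. Nearly all of that was col-19, at 1829 to 3293 CPM and then 116.5 to 165.8 CPM. The transcription factor genes elt-1 (log2 0.19), elt-3 (0.49), nhr-23 (0.2) and nhr-25 (0.84) did not pass, and neither did dpy-7 (-0.94). Muscle markers, which sit beside the matrix genes, fell in 7 of 8 cases, with sums of 1517 to 2370 CPM and then 421 to 764 CPM. What part these tissues had in the family changes was not tested.

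**Figure D2:**
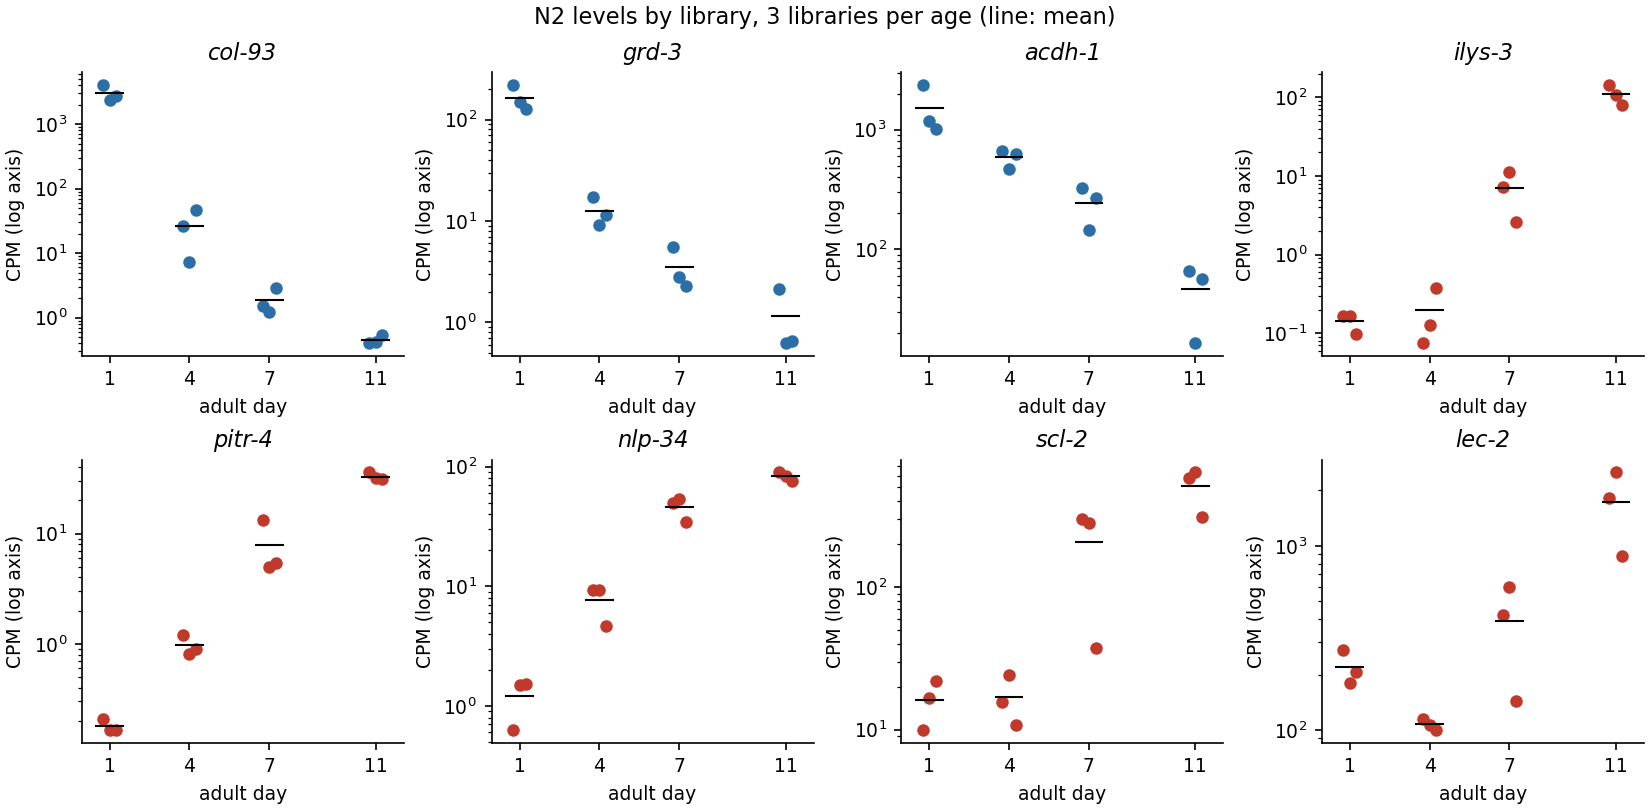
Levels of 8 genes in each N2 library at adult days 1, 4, 7 and 11 (CPM, log axis, 3 points per age, line at the mean, blue for falls and red for rises from day 1 to day 11). The collagen gene col-93 drops by orders of magnitude by day 4, and ilys-3 stays below 0.4 CPM to day 4 and lies above 79 CPM in all day 11 libraries.

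Genes for antibacterial proteins were among the largest rises. The invertebrate-type lysozyme gene ilys-3, whose product breaks down bacterial cell walls, was at 0.168, 0.165 and 0.0993 CPM and then at 143, 106 and 79.6 CPM (log2 9.55 ± 0.75, adjusted p = 7.36e-09). Its neighbour ilys-2 (chromosome IV, positions 2467678 to 2468879) was at 0.084, 0.0413 and 0.728 CPM and then at 46.5, 20.1 and 12.9 CPM (log2 6.43 ± 0.82). Neither gene had a young library near any old library. The lysozyme gene lys-7 ranked among the 6 largest gains in CPM, from 72.5, 156 and 93 to 3164, 2364 and 1531 CPM (log2 4.46 ± 0.60, adjusted p = 6.51e-06). Other rises at the top of the ranking were those of the phosphate transporter family gene pitr-4 (0.21, 0.165 and 0.165 CPM and then 36, 31.7 and 31 CPM), of the carnitine palmitoyltransferase family gene cpt-4 (0.546, 1.12 and 1.52 CPM and then 78.3, 52.5 and 73.1 CPM) and of scl-2, which encodes a secreted cysteine-rich protein (9.95, 16.7 and 22 CPM and then 582, 637 and 311 CPM). The 3 old libraries of pitr-4 were close together, and those of scl-2 less so, with library 3 lowest. Over the 13 tested genes of that secreted family 2 rose (15.4%) and 4 fell (30.8%). Rises numbered 1 without day 1 library 1, day 1 library 2 or day 11 library 2, and falls 2 without day 1 library 1. The genes dct-8 (log2 6.36 ± 0.92) and srlf-34 (log2 5.32 ± 0.57) were the other rises of that ranking with no known family described here.

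Antimicrobial peptide genes of the epidermis, which worms switch on after fungal infection or wounding, split by member. Of 58 annotated genes 35 could be tested, and 18 rose (51.4%) and 9 fell (25.7%). The caenacin gene cnc-4 went from 0.378, 2.03 and 2.25 CPM to 78.5, 57.7 and 67 CPM (log2 5.43 ± 0.56) and nlp-34 from 0.63, 1.49 and 1.52 CPM to 89.5, 82.9 and 76 CPM (log2 6.08 ± 0.46, adjusted p = 4.04e-09). In the same family nlp-24 fell from 93.6, 65.8 and 125 CPM to 1.17, 1.17 and 2.44 CPM (log2 -5.88 ± 0.57, adjusted p = 1.19e-07). The relatives cnc-1, cnc-6, cnc-11 and fip-1 had no count in any day 1 library, so they could not have fallen, and they are among the 18 rises. When that group is given 3 counts in all as its limit, cnc-6 was at least 157-fold higher at day 11 and fip-1 at least 29-fold higher. Thaumatin-like and galectin genes (15 tested) gave 6 rises (40%) and 4 falls (26.7%). The thaumatin-like gene thn-2 rose from 6.51, 7.94 and 12.4 CPM to 243, 136 and 108 CPM (log2 4.18 ± 0.58), and the galectin gene lec-2 from 272, 181 and 206 CPM to 1829, 2506 and 882 CPM (log2 2.99 ± 0.48). A further galectin gene, lec-10, fell from 128, 144 and 180.0 CPM to 15.5, 13.8 and 13.8 CPM (log2 -3.39 ± 0.29, adjusted p = 2.17e-08).

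The pals genes gave the highest share of rises of the 41 families. Many of them belong to the intracellular pathogen response, a programme that worms start when microsporidia or the Orsay virus infect the gut, and pals-22 and pals-25 are its known antagonistic regulators. Of 38 annotated genes 34 were tested, 26 rose (76.5%) and 2 fell, and 21 rose at least 4-fold. The median change was 3.08, also with members that had no day 1 count set to their bounds. Most members were scarce: the median over the family of the mean level was 1.44 CPM, and among all genes of 1 to 10 CPM 30.8% rose. Among them pals-26 was at 0.882, 0.289 and 1.59 CPM and then 13.2, 9.97 and 14.6 CPM (log2 3.74 ± 0.41, adjusted p = 6.38e-07). Levels of pals-37 were 0.252, 0.165 and 0.397 CPM and then 5.27, 3.73 and 6 CPM (log2 4.16 ± 0.36). The widely used reporter gene of the programme, pals-5, was at 0.084, 0 and 0.165 CPM and then 1.99, 1.76 and 1.19 CPM (log2 4.16 ± 0.81, adjusted p = 0.000387). In none of these did an old library overlap a young library, as for 48.9% of all genes tested. No count of pals-9, pals-11 or pals-12 was found at day 1, which puts pals-9 at least 29-fold, pals-12 at least 27-fold and pals-11 at least 11.7-fold higher at day 11. These 3 passed the filter only through other groups and could not have fallen, and they are among the 26 rises.

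The known regulators had smaller changes. The regulator pals-22, which holds the programme down, rose from 4.41, 3.14 and 5.79 CPM to 6.26, 7.54 and 7.76 CPM (log2 0.69 ± 0.22, adjusted p = 0.0168), and pals-25, which promotes it, from 6.21, 4.22 and 6.68 CPM to 10.7, 9.8 and 11 CPM (log2 0.88 ± 0.25, adjusted p = 0.00818). The call of pals-22 was lost without day 1 library 2 (adjusted p = 0.103) or day 11 library 3 (adjusted p = 0.0566), and that of pals-25 without day 1 library 2 (adjusted p = 0.0522). The genes that fell were pals-23, from 32.9, 32.5 and 70.7 CPM to 16.2, 23.8 and 24.6 CPM, and pals-24, from 31.7, 41.9 and 105 CPM to 18.1, 23.4 and 39.9 CPM. For pals-24 the ages overlapped, and its call was lost without day 1 library 3 (adjusted p = 0.382), day 11 library 1 (adjusted p = 0.134) or day 11 library 2 (adjusted p = 0.107). Ubiquitin ligase components take part in the same programme, and cul-6, its cullin, rose from 7.56, 7.03 and 15.2 CPM to 19.2, 18.7 and 27 CPM (log2 1.12 ± 0.42, adjusted p = 0.0368). That call was lost without day 1 library 1 (adjusted p = 0.132), day 1 library 2 (adjusted p = 0.14) or day 11 library 3 (adjusted p = 0.125). Over all 45 tested SKP1-related, cullin and ubiquitin-conjugating genes 11 rose (24.4%) and 5 fell. Rises numbered 7 without day 1 library 1 or day 11 library 3 and 18 with the block, and falls 3 without day 11 library 2 and 8 with the block.

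**Figure D3:**
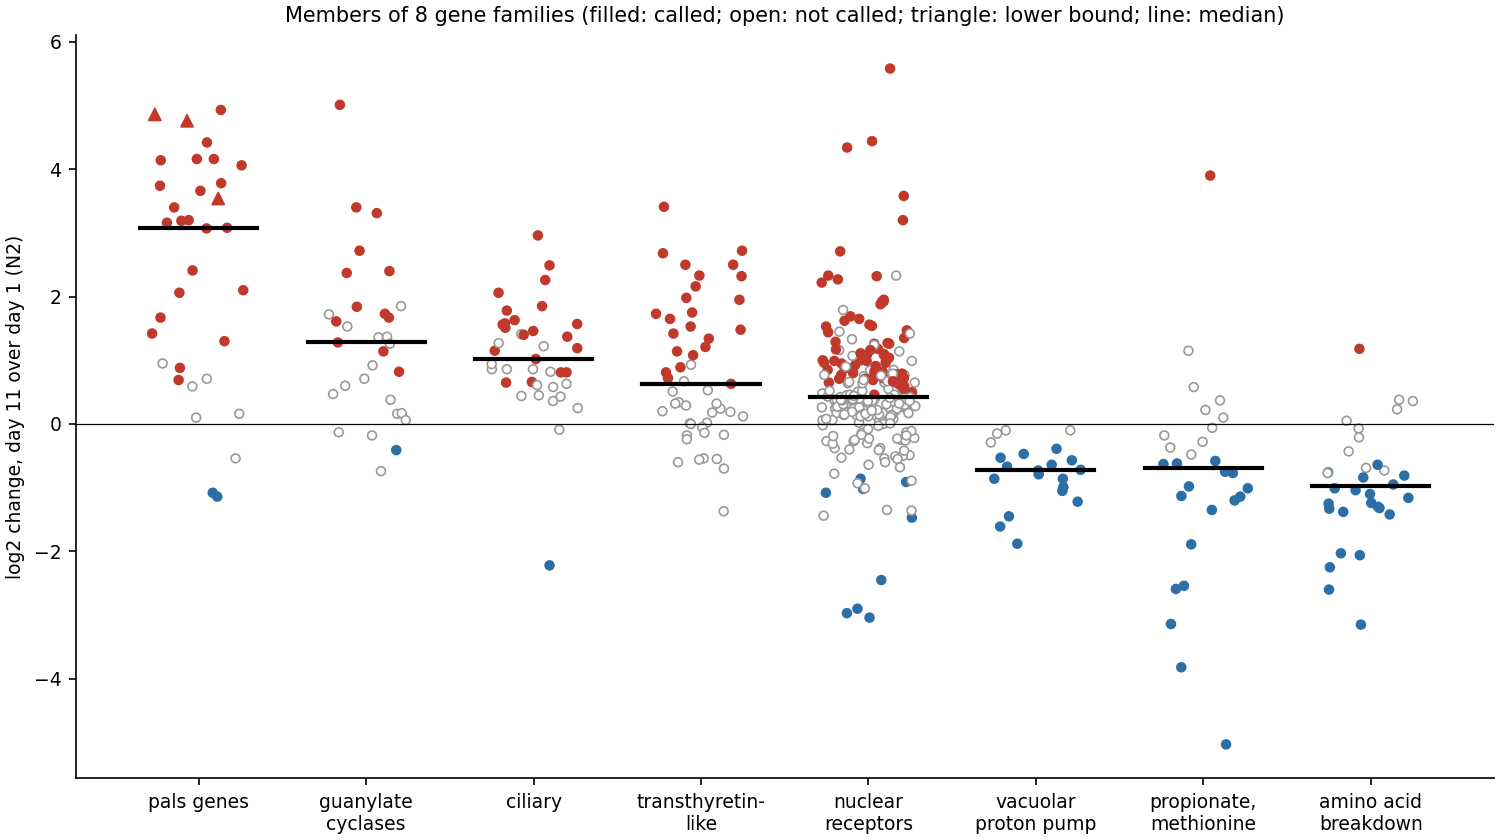
Log2 change of every tested member of 8 families (filled points were called, open points were not, triangles are lower bounds for genes without a day 1 count, lines are medians). The pals genes have a median of 3.08 and the amino acid breakdown genes a median of -0.98, and no vacuolar proton pump subunit lies above 0.

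F-box proteins choose the targets of ubiquitin ligases, and the 2 large groups of worm F-box genes gave different counts. Of 143 tested F-box A genes 52 rose (36.4%) and 14 fell (9.79%), with a median of 0.48. Their median level was 2.42 CPM, and among all genes of 1 to 10 CPM 30.8% rose and 13.2% fell. Levels of fbxa-24 were 0.504, 0.248 and 0.96 CPM and then 13.2, 16.3 and 11.2 CPM (log2 4.53 ± 0.35, adjusted p = 5.64e-09), whereas fbxa-72 fell from 55, 18.4 and 19.8 CPM to 1.73, 1.93 and 1.4 CPM (log2 -4.21 ± 0.47). Of 139 F-box B and C genes 10 rose (7.19%) and 15 fell (10.8%), both below the background shares. Those counts were unsteady: 30 rose and 36 fell with the block, rises were 5 without day 1 library 1 and 6 without day 11 library 3, and falls were 9 without day 1 library 3 or day 11 library 1 or 2. Transthyretin-like genes, small secreted proteins of which ttr-52 is known to bridge dying cells to their engulfing neighbours, gave 24 rises (47.1%) and no fall in 51 tested by edgeR (0 at an unadjusted p below 0.05, 0 by DESeq2, 4 with the block). Transcripts of ttr-51 went from 149, 163 and 256 CPM to 983, 1538 and 1130.0 CPM (log2 2.68 ± 0.28), those of ttr-45 from 72.8, 75.1 and 94.3 CPM to 548, 652 and 399 CPM (log2 2.72 ± 0.24) and those of ttr-26 from 7.39, 3.89 and 10 CPM to 70.4, 59.1 and 97.9 CPM (log2 3.41 ± 0.37).

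Metabolic enzymes of the propionate shunt and of the methionine and choline pathways fell in most cases. On a diet low in vitamin B12, such as OP50, the shunt breaks down propionate through acdh-1, ech-6, hach-1 and hphd-1. The acyl-CoA dehydrogenase gene acdh-1 (chromosome I, positions 6497436 to 6499560) was at 2355, 1188 and 1022 CPM and then 66.2, 16.6 and 57 CPM (log2 -5.03 ± 0.51, adjusted p = 2.27e-07), and hphd-1 at 458, 218 and 138 CPM and then 21.1, 19.5 and 17.3 CPM (log2 -3.82 ± 0.36). Day 1 library 1 was the highest for both, and no library of one age reached the other age. The other shunt genes fell too: ech-6 by a log2 change of -2.54 ± 0.23 and hach-1 by one of -1.89 ± 0.26. Nuclear receptor genes known to act on these pathways were also lower, nhr-68, which switches on the shunt (68.2, 52.9 and 86.1 CPM and then 22.6, 22 and 30.3 CPM, log2 -1.47 ± 0.25), and nhr-114, which acts on methionine cycle genes (40.5, 12.9 and 12.8 CPM and then 3.13, 2.47 and 2.41 CPM, log2 -3.04 ± 0.36). Of the methionine and choline genes, the S-adenosylmethionine synthetase gene sams-1 fell from 156, 89.9 and 124 CPM to 25.4, 17.8 and 18.2 CPM (log2 -2.59 ± 0.26) and the methyltransferase gene pmt-2 from 823, 492 and 517 CPM to 75.4, 65.4 and 67.2 CPM (log2 -3.14 ± 0.21, adjusted p = 6.7e-10). In all 17 of 28 genes fell (60.7%), with a median of -0.69, and the cystathionine beta-synthase gene cbs-2 rose, from 0.336, 0.662 and 0.562 CPM to 9.37, 8.17 and 6 CPM (log2 3.90 ± 0.45). Rises numbered 2 without day 1 library 2 and 4 with the block.

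Amino acid breakdown showed the same direction, with 21 of 32 genes lower (65.6%) and the glutaminase gene glna-3 higher (2 rises with the block). In the glycine cleavage system gcsh-1 fell from 23.6, 22 and 33.8 CPM to 2.37, 3.06 and 3.51 CPM (log2 -3.15 ± 0.35, adjusted p = 7.21e-07) and gldc-1 from 221, 148 and 188 CPM to 44.5, 58.5 and 31.1 CPM (log2 -2.06 ± 0.21). In the kynurenine pathway of tryptophan breakdown haao-1 fell from 37.8, 34 and 67.8 CPM to 5.91, 7.04 and 10.1 CPM (log2 -2.60 ± 0.44), kynu-1 from 183, 193 and 319 CPM to 38.9, 44 and 63.4 CPM (log2 -2.25 ± 0.30), and kmo-1 by a log2 change of -1.33 ± 0.34. None of these had overlapping ages. The family summed to 3244 to 3430 CPM at day 1 and to 1578 to 1817 CPM at day 11.

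The vacuolar proton pump, which acidifies lysosomes and drives transport at the gut and epidermal surface, was lower in 17 of its 21 subunit genes (81%). No subunit rose by edgeR (0 at an unadjusted p below 0.05 and 0 by DESeq2), and the median was -0.72. The 4 alternative a subunits did not move alike in size. Levels of vha-5, the a subunit of the epidermis and excretory canal, were 261, 198 and 380.3 CPM and then 68.4, 73.2 and 86.4 CPM (log2 -1.88 ± 0.25, adjusted p = 5.24e-06), and those of vha-6, the a subunit of the gut, 230.5, 276 and 310.4 CPM and then 78.3, 92.4 and 97.5 CPM (log2 -1.61 ± 0.22, adjusted p = 7.09e-06). The other a subunit genes did not pass: unc-32, the form prominent in neurons, had a log2 change of -0.10 ± 0.11 (adjusted p = 0.496) and vha-7 one of -0.15 ± 0.29 (adjusted p = 0.711). The difference between a subunits was not tested. The proteolipid gene vha-3 fell from 114, 102.7 and 138 CPM to 43.8, 46.5 and 40.2 CPM (log2 -1.45 ± 0.18), although RSEM divides reads between it and its near-identical copy vha-2. Beside these metabolic falls, 4 of 7 intestine markers fell (vha-6, act-5, ifb-2 and pept-1) and elt-7 rose. As a pump subunit gene, vha-6 is no separate measure of gut RNA. The intestine markers summed to 843 to 1039 CPM at day 1 and to 262 to 273.5 CPM at day 11, and none was at 0. Most of the day 1 sum was act-5 (406.6 to 517.9 CPM) and vha-6 (230.5 to 310.4 CPM). Neither elt-2, the gut's main GATA factor gene (log2 -0.11), nor ges-1 (0.2) passed. The part of gut RNA in these results was not tested.

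Lipid and peroxisome genes went both ways. The peroxisome, acyl-CoA synthetase and ABC transporter lists lay near the shares over all genes, 22.5% rising and 19.2% falling. Of 28 peroxisomal genes 7 rose (25%) and 7 fell (25%). The falls held 4 acyl-CoA oxidase genes, of a family known for ascaroside pheromone synthesis, led by acox-1.3, from 24.5, 18 and 20.6 CPM to 1.76, 0.838 and 1.28 CPM (log2 -4.005 ± 0.30, adjusted p = 3.27e-09). Rises numbered 4 without day 1 library 1, day 1 library 2 or day 11 library 2. Of 17 lipid-binding protein genes 6 rose (35.3%) and 6 fell (35.3%). Among them far-7 went from 1.64, 1.24 and 2.18 CPM to 12.4, 20.2 and 10.6 CPM (log2 3.08 ± 0.36) and lbp-6 from 224, 146 and 199 CPM to 45.7, 56.6 and 59.7 CPM (log2 -1.81 ± 0.21). Of 22 acyl-CoA synthetase genes 5 rose (22.7%) and 3 fell (13.6%), among the falls acs-1, which activates branched-chain fatty acids (log2 -2.20 ± 0.23). Among 20 trehalose, glycogen and glycerol genes 4 rose (20%) and 7 fell (35%). The trehalase gene tre-5 rose (log2 3.25 ± 0.37), and so did tps-1, the trehalose synthase gene (log2 1.09 ± 0.19), while gpdh-1, for glycerol synthesis, fell (log2 -2.49 ± 0.44). Of 58 ABC transporter genes 13 rose (22.4%) and 11 fell (19%), with pgp-7 going from 1.81, 1.32 and 4.47 CPM to 28.3, 27.3 and 36.4 CPM (log2 3.58 ± 0.45).

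Metal and heme genes rose in 11 (28.2%) and fell in 8 (20.5%) of 39 cases, near the shares over all genes (22.5% and 19.2%). The metallothionein gene mtl-1, for metal binding, was at 0.252, 0.868 and 1.79 CPM and then 26.6, 27 and 50.3 CPM. Ferritin, which stores iron, was represented by ftn-1 at 0.462, 1.12 and 1.39 CPM and then 16, 42.8 and 26.5 CPM (log2 4.82 ± 0.61). The zinc transporter gene cdf-2 rose as well (log2 1.47 ± 0.26), and hrg-7, a secreted protease in heme signalling, fell (log2 -1.56 ± 0.34). Rises numbered 7 without day 11 library 1 or 2, and falls 5 without day 1 library 1 or day 11 library 2.

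Genes of sensory neurons rose more often than the background. They were scarce, with a median level of 1.31 CPM for ciliary genes and 0.787 CPM for guanylate cyclases. Among all genes of 1 to 10 CPM 30.8% rose, and among those under 1 CPM 23%. Ciliary genes, needed to build the sensory endings of neurons, rose in 21 of 39 cases (53.8%) and fell in 1, with a median of 1.02. The family summed to 73.8 to 102.5 CPM at day 1 and to 155 to 162 CPM at day 11. Its transcription factor gene, daf-19, rose from 4.24, 6 and 4.57 CPM to 8.17, 17.2 and 13.7 CPM (log2 1.40 ± 0.25, adjusted p = 0.000146), the intraflagellar transport gene dyf-2 from 3.06, 3.72 and 3.14 CPM to 7.79, 6.83 and 7.4 CPM (log2 1.15 ± 0.22), and the small GTPase gene arl-13 from 1.26, 0.951 and 1.26 CPM to 3.98, 4.4 and 4.19 CPM (log2 1.85 ± 0.24, adjusted p = 3.46e-06). All their old libraries were above all young libraries. The exception was mks-1, of the ciliary transition zone, which fell from 1.72, 1.65 and 0.728 CPM to 0.381, 0.377 and 0.119 CPM (log2 -2.22 ± 0.42).

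Guanylate cyclases, which make cGMP in sensory neurons for smell, taste, temperature and oxygen sensing, rose in 13 of 31 cases (41.9%), with a median of 1.28. Transcripts of gcy-19 went from 2.77, 4.75 and 3.81 CPM to 39, 47.8 and 32.8 CPM (log2 3.40 ± 0.46, adjusted p = 7.94e-06). Of the 3 cyclases of the thermosensory neuron AFD, gcy-23 rose from 1.93, 1.7 and 1.82 CPM to 8.93, 12.4 and 6.96 CPM (log2 2.37 ± 0.39) and gcy-18 rose too (log2 0.82 ± 0.21), while gcy-8 did not pass (0.16 ± 0.55, adjusted p = 0.843). Of the soluble cyclases, which include oxygen sensors, gcy-34 rose from 0.462, 0.744 and 0.827 CPM to 6.06, 8.17 and 6.21 CPM (log2 3.31 ± 0.37). The lone fall was that of gcy-12, by a log2 change of -0.41 ± 0.14, which was lost without day 1 library 1 (adjusted p = 0.051), day 1 library 3 (adjusted p = 0.0703), day 11 library 2 (adjusted p = 0.0516) or day 11 library 3 (adjusted p = 0.126). Chemoreceptor genes were mostly too scarce to test: 186 of 1299 passed the filter, 165 of them with a mean under 1 CPM. Of those tested 57 rose (30.6%) and 6 fell (3.23%), against 23% and 4.23% of all genes under 1 CPM. Tested members without a day 1 count numbered 6, and these could not have fallen. The receptor gene srr-4 rose from 22.3, 9.14 and 8.6 CPM to 56.4, 58.1 and 57 CPM (log2 2.10 ± 0.33), and srh-237 fell from 19.8, 9.05 and 4.76 CPM to 0.234, 0.0838 and 0.238 CPM (log2 -5.83 ± 0.64). Falls numbered 3 without day 1 library 3 or day 11 library 2, and rises 34 in a fit of the compared groups alone.

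Rises of synaptic and channel genes lay nearer the background share (22.5%), and falls lay below theirs (19.2%). Ligand-gated channel subunits rose in 23 of 91 cases (25.3%) and fell in 3 (3.3%), with 14 rises without day 1 library 2. Potassium channel subunits rose in 16 (23.2%) and fell in 8 (11.6%) of 69 cases (15 falls with the block). Synaptic genes rose in 11 (20.8%) and fell in 3 (5.66%) of 53. The median level of the synaptic list was 11.6 CPM, and among all genes of 10 to 100 CPM 19.5% rose and 30.8% fell. The channel lists had median levels of 1.43 and 2.81 CPM, and among all genes of 1 to 10 CPM 30.8% rose and 13.2% fell. The vesicular glutamate transporter gene eat-4 rose from 3.02, 1.74 and 3.18 CPM to 7.79, 6.96 and 9.48 CPM (log2 1.61 ± 0.42), whereas bas-1, the decarboxylase of serotonin and dopamine synthesis, fell from 26.3, 21.5 and 29.7 CPM to 8.66, 11.6 and 9.04 CPM (log2 -1.41 ± 0.19). Neuropeptide precursor genes rose in 14 of 89 cases (15.7%) and fell in 2 (2.25%). Among the rises nlp-39 was at 0.168, 0.0413 and 0.265 CPM and then 24.2, 17.9 and 18.4 CPM and nlp-61 at 2.6, 2.73 and 4.27 CPM and then 15.6, 19.8 and 19.4 CPM (log2 2.50 ± 0.24, adjusted p = 1.14e-07). With the block 23 rose and 7 fell, 7 fell without day 1 library 2, and 1 fell without day 1 library 3 or day 11 library 2. Globins, heme proteins many of which are found in neurons, rose in 15 of 32 cases (46.9%; 9 without day 1 library 2) and fell in 2 (1 without any one of day 1 libraries 1 and 3 and the 3 day 11 libraries). The most abundant, glb-1, fell from 63.6, 65.3 and 96.1 CPM to 19.1, 16.3 and 27.1 CPM (log2 -1.84 ± 0.29). Of 8 neuron markers snb-1, unc-64 and ric-19 rose, none was at 0, and the sums were 98.7 to 132 CPM at day 1 and 171 to 197 CPM at day 11. Whether the share of neuronal RNA bears on these lists was not tested.

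Transcription and signalling genes that sense lipids and growth cues rose more often than they fell. Of 274 nuclear hormone receptor genes, ligand-regulated transcription factors expanded in nematodes, 216 were tested, 69 rose (31.9%) and 9 fell (4.17%). Their median level was 3.65 CPM, and among all genes of 1 to 10 CPM 30.8% rose and 13.2% fell. The share of rises was thus near that of all genes at this level, and the share of falls was lower. The receptor gene nhr-61 went from 10.6, 10.9 and 10.8 CPM to 38.1, 44.6 and 39.7 CPM (log2 1.92 ± 0.29) and nhr-74 from 10.5, 9.63 and 10.9 CPM to 1.11, 2.14 and 0.981 CPM (log2 -2.90 ± 0.32, adjusted p = 5.31e-07). Rises were 45 without day 1 library 1, and falls 19 with the block. In the list of TGF-beta and dafachronic acid genes, which set larval development, body size and the choice of diapause, 12 of 25 rose (48%) and 1 fell. Rises covered the receptor gene daf-1 (log2 0.53 ± 0.12) and the Smad gene sma-3 (log2 0.84 ± 0.18). The Smad genes daf-14 (log2 0.94 ± 0.27) and daf-8 (log2 0.48 ± 0.15) passed, but daf-14 was lost without day 1 library 1 (adjusted p = 0.0606) and daf-8 without day 1 library 2 (adjusted p = 0.0701) or day 11 library 2 (adjusted p = 0.0737). The ligand gene daf-7, at 0.924, 0.62 and 0.794 CPM and then 1.41, 1.68 and 1.64 CPM (log2 1.01 ± 0.40, adjusted p = 0.0485), was lost without any one of the 6 libraries (adjusted p from 0.0642 to 0.149). The BMP cofactor gene crm-1 rose from 23.2, 22.3 and 23.5 CPM to 90.5, 99.5 and 55.5 CPM (log2 1.83 ± 0.23), and sma-9, a zinc finger gene of the body size pathway, from 65.6, 81.5 and 83 CPM to 172, 207 and 151 CPM (log2 1.21 ± 0.14). The fall was that of daf-36, an oxygenase of dafachronic acid synthesis, from 15.4, 13.4 and 22.9 CPM to 3.54, 3.27 and 5.94 CPM (log2 -2.01 ± 0.37). With the block 2 of the list fell.

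Genes of germline RNA pathways fell in more cases than they rose. The median level of 51 Argonaute and small RNA genes was 86.9 CPM, and among all genes of 10 to 100 CPM 30.8% fell. Of these 51 genes 17 fell (33.3%), near that share, and 5 rose. The falls included csr-1, the essential germline Argonaute, from 376, 385 and 215 CPM to 168, 171 and 98.4 CPM (log2 -1.16 ± 0.32), ego-1, an RNA-dependent RNA polymerase, from 353, 319 and 219.7 CPM to 157, 138 and 106 CPM (log2 -1.15 ± 0.23), and mut-14, a helicase of small RNA amplification, from 106, 94.3 and 76.4 CPM to 46.5, 40.9 and 33 CPM (log2 -1.20 ± 0.18). The secondary Argonautes sago-1 (log2 0.83 ± 0.19) and sago-2 (log2 1.00 ± 0.30) rose, the call of sago-2 being lost without day 1 library 2 (adjusted p = 0.0587) or day 11 library 1 (adjusted p = 0.0652). Falls numbered 11 without day 1 library 1, day 1 library 2 or day 11 library 3, 27 without day 1 library 3 and 30 with the block, with which 9 rose. P granule genes, whose products form germline condensates, fell in 9 of 28 cases (32.1%), and meg-2 rose. Their median level was 110 CPM, and among all genes above 100 CPM 29% fell, near the share of this list. Falls of the core components took pgl-1 from 639.5, 739 and 381 CPM to 272, 237 and 201 CPM (log2 -1.31 ± 0.29) and pgl-2 from 86.4, 81.8 and 106 CPM to 34.1, 29.9 and 27.8 CPM (log2 -1.58 ± 0.14). Here falls were 4 without day 1 library 2 or day 11 library 3, and rises 2 with the block or without day 1 library 2 or day 11 library 1. For csr-1 and pgl-1, day 1 library 3 was the lowest young library. Of 8 germline markers 4 fell (pgl-1, pgl-3, glh-1 and him-3), none was at 0, and the 8 summed to 1460 to 2739 CPM and then 1004 to 1380 CPM. Because pgl-1, pgl-3 and glh-1 are themselves P granule genes, their falls are no separate measure of germline RNA. The markers glp-1 (log2 -0.41), gld-1 (0.21), htp-3 (-0.67) and syp-1 (-0.36) did not pass. Of 8 oocyte markers 1 rose and 0 fell. Of 10 sperm markers 4 rose (spe-9, spe-11, spe-41 and fer-1) and 0 fell. They summed to 8.85 to 24.45 CPM at day 1 and to 38.04 to 59.95 CPM at day 11, of which spe-41 held 20.6 to 30.75 CPM. The markers msp-10 (log2 -1.67), msp-3 (-1.15), gsp-3 (-0.61), ssp-10 (-0.49), gsp-4 (0.04) and spe-38 (0.82) did not pass. How much of the germline falls came with less germline RNA was not tested.

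Histone genes rose in more cases than they fell. Of 60 tested histone genes 19 rose (31.7%) and his-38 fell. Worm libraries made without poly(A) selection capture histone transcripts, but RSEM divides reads among their near-identical copies, so a single replication-dependent histone gene is uncertain. The linker histone gene hil-1, which is not a close copy of a core histone, rose from 3.95, 3.85 and 5.39 CPM to 21.9, 39.5 and 25.2 CPM (log2 2.71 ± 0.27, adjusted p = 1.62e-07). The replacement histone H3.3 gene his-72 rose by 0.70 ± 0.15. Rises were 7 without day 1 library 1, 8 without day 1 library 2, 11 without day 11 library 3 and 30 with the block, with which 3 fell. Of 44 histone-modifying and chromatin genes 4 rose (9.09%) and 7 fell (15.9%). Among the falls was rbbp-5, a subunit of the H3K4 methyltransferase complex (from 93, 87.4 and 67.2 CPM to 48.9, 47.3 and 42.1 CPM, log2 -0.84 ± 0.13). The median of that list was -0.06, and it was positive under upper-quartile scaling (0.13), by library size alone (0.18) or without day 1 library 2 (0.13). The chromatin rises were 2 without day 1 library 1 or 2, 1 without day 11 library 3 and 7 with the block, and the falls 4 without day 1 library 2 and 11 without day 1 library 3. Of 47 nuclear pore and lamina genes 6 fell (12.8%) and 2 rose (4.26%). Falls numbered 16 with the block or without day 1 library 3, and rises 4 with the block. Among the falls was ran-4, for nuclear import (log2 -0.95 ± 0.14). Counts were also low for MATH and BATH domain genes, with 9 rises (14.1%) and 7 falls (10.9%) among 64 (16 and 14 with the block), of which bath-38 rose (log2 1.53 ± 0.17).

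Gains and losses of greatest weight in CPM shared col-20 with the largest folds. The 6 greatest losses were 5 collagen genes, such as col-140 (from 7087, 5031 and 7285 CPM to 73.5, 118 and 109 CPM), and a gene of the mitochondrial genome. Gains were led by srlf-7, from 265, 432 and 824 CPM to 3642, 5373 and 4561 CPM (log2 3.16 ± 0.39), and by asp-6, an aspartyl protease gene, from 1604, 1945 and 1823 CPM to 3783, 5298 and 3389 CPM (log2 1.22 ± 0.29). Histone genes his-47 and his-58 were also among the gains, the call of his-47 being lost without day 1 library 1 (adjusted p = 0.0501) and in the fit of the compared groups alone (adjusted p = 0.0534). Transcripts of the mitochondrial genome other than its ribosomal RNA held 1.33%, 0.912% and 1.65% of counts at day 1 and 0.455%, 0.304% and 0.709% at day 11, without overlap (exact permutation test, two-sided, p = 0.1, the smallest that 3 against 3 allows). The share of ribosomal RNA genes was 9.94% ± 3.37 at day 1 and 8.73% ± 2.71 at day 11 (SD, n = 3 and 3; exact permutation test, p = 0.6).

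Non-coding RNA genes took a larger share of the libraries at day 11. Genes annotated as ncRNA held 0.519%, 0.570% and 1.43% of counts at day 1 and 2.11%, 2.02% and 2.74% at day 11 (exact permutation test, two-sided, p = 0.1). Among them was tts-1 (chromosome X, positions 1504131 to 1504841), a long non-coding RNA known to bind ribosomes, at 17, 75.2 and 128.9 CPM and then 1808, 2259 and 2258 CPM. Another gene of that type, Y53F4B.45 (chromosome II, positions 15042805 to 15044011), went from 4.75, 5.42 and 6.35 CPM to 145, 220.0 and 122.5 CPM (log2 4.88 ± 0.29, adjusted p = 2.44e-10), and W07G1.25 fell from 7.47, 6 and 12.4 CPM to 1.81, 1.22 and 1.64 CPM. The intergenic RNA linc-22 rose from 10.2, 10.5 and 11.4 CPM to 30.9, 39.4 and 41.5 CPM (log2 1.80 ± 0.19), and the small nucleolar RNA gene C17D12.8 from 0.84, 0.868 and 1.82 CPM to 14.9, 17.5 and 27.1 CPM (log2 4.05 ± 0.47). Of 691 tested pseudogenes 208 rose (30.1%) and 52 fell (7.53%). The strand setting of the counting is not given in the sources used here, so genes that overlap another on the opposite strand are uncertain.

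**Figure D4:**
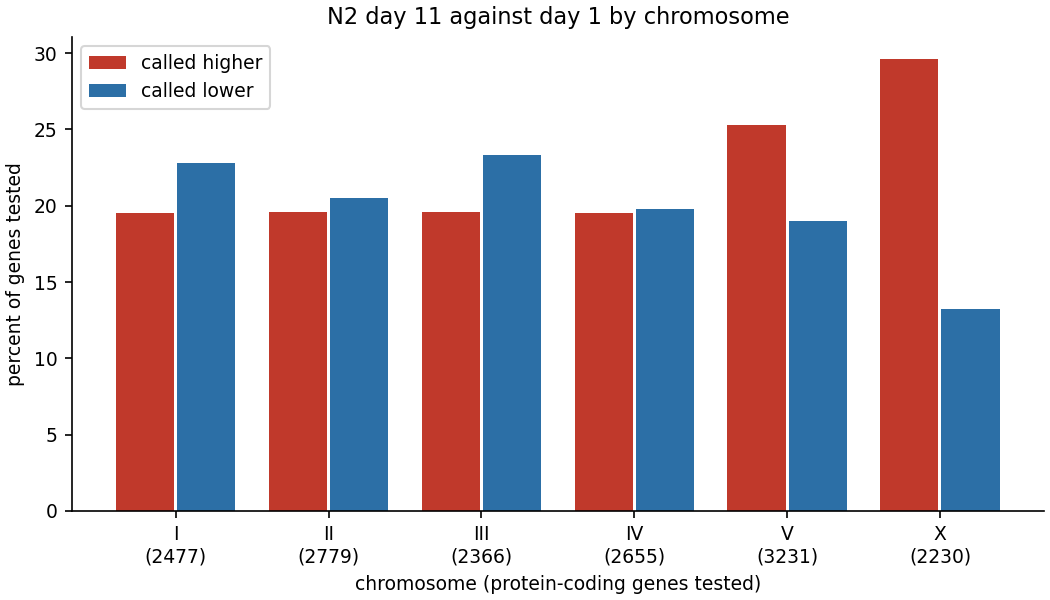
Percent of tested protein-coding genes called higher (red) or lower (blue) at day 11 on each nuclear chromosome, with the number tested in brackets. The X chromosome has the highest share of rises, 29.6%, and the lowest share of falls, 13.2%.

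Genes on the X chromosome rose more often than those on autosomes. In hermaphrodites the X is present in the same number of copies as each autosome, and it carries few genes of the germline and many of the soma. Of 2230 tested protein-coding genes on X, 659 rose (29.6%) and 295 fell (13.2%), with a median change of 0.40. Over the autosomes 20.9% rose and 20.9% fell. Among genes with a mean of at least 10 CPM the contrast was wider, with 38.7% rising and 17.3% falling on X (900 genes) and 14.1% and 32.1% on the autosomes (6890 genes). Chromosome V, home to many chemoreceptor and F-box genes, gave 25.3% and 19%, and the other autosomes 19.5% to 19.6% rising and 19.8% to 23.3% falling. The X had the higher share of rises and the lower share of falls under every other scaling, filter, tool and left-out N2 library tried: with library size alone 37.3% rose on X and 27.7% on autosomes, and without day 1 library 2 the shares were 21% and 16.1%. The gene-rich central part of autosomes, cut at 3 equal lengths, gave 19.2% rising and 23.4% falling, and the outer parts 22.2% and 19.2%. Germline markers fell in 4 of 8 cases, whereas 0 oocyte and 0 sperm markers fell, and 1 of 8 and 4 of 10 of these rose. Sperm markers that did not pass had log2 changes from -1.67 to 0.82. The part of germline RNA in the X pattern was not tested.

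Libraries of N2 at days 4 and 7 place these changes in time. All comparisons with day 1 share the day 1 libraries, so their counts are given side by side and not compared by a test. At day 4 against day 1 9.08% of genes were called: 503 rose (3.01%) and 1013 fell (6.07%), and at day 7 against day 1 25.9% were called, of which 2143 rose (12.8%) and 2181 fell (13.1%). Between neighbouring ages 402 genes (2.41%) were called from day 4 to day 7, of which 296 rose (1.77%) and 106 fell (0.635%). From day 7 to day 11 there were 511 (3.06%), of which 182 rose (1.09%) and 329 fell (1.97%). With the block these 4 comparisons gave 3854, 7148, 2288 and 2489 calls. Named collagens, muscle markers and the proton pump already had many of their falls by day 4: 8 of 21, 7 of 8 and 9 of 21. The mean of col-93 was 3040.0 CPM at day 1, 26.4 CPM at day 4, 1.86 CPM at day 7 and 0.455 CPM at day 11.

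Other families had fewer calls at day 4 than at day 7 or day 11. Ciliary genes rose in 1, 8 and 21 of 39 cases at days 4, 7 and 11, pals genes in 3, 14 and 26 of 34, and nuclear hormone receptor genes in 2, 25 and 69 of 216. Over all genes tested the shares of rises at these ages were 3.01%, 12.8% and 22.5%. The pals genes lay above these shares at each of the ages. Tested directly from day 7 to day 11, 1 ciliary gene and 2 pals genes rose, and 1 nuclear hormone receptor gene rose and 2 fell. Whether the 3 families changed later than others was not tested. Transthyretin-like genes had 23 of 51 rises by day 7, against 24 at day 11. The lysozyme gene ilys-3 had mean levels of 0.144, 0.195, 7.03 and 109 CPM at days 1, 4, 7 and 11, and ilys-2 0.284, 0.154, 0.892 and 26.5 CPM. Both were below 1 CPM on average at day 4. In contrast nlp-39 had climbed by day 4, with means of 0.158, 2.53, 14 and 20.2 CPM, and the galectin gene lec-2 had means of 219.5 CPM at day 1, 107 CPM at day 4, a difference that did not pass (adjusted p = 0.171), and 1739 CPM at day 11.

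**Figure D5:**
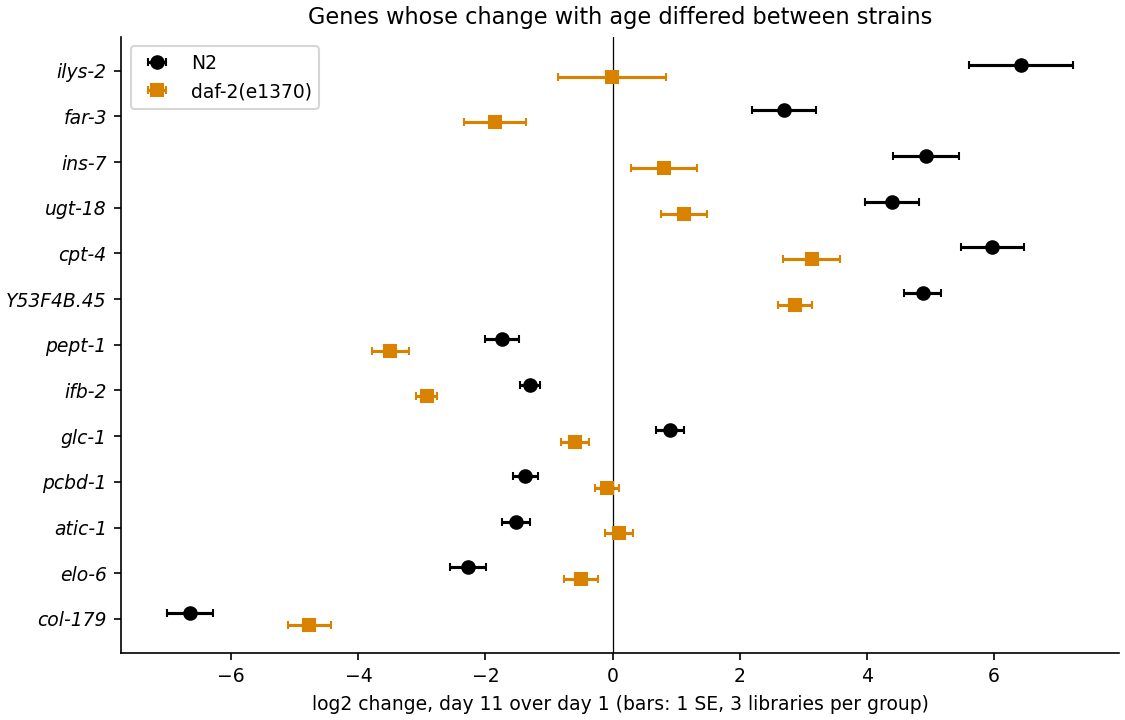
Log2 change from day 1 to day 11 in N2 (black circles) and in daf-2(e1370) worms (orange squares), with bars of 1 SE and 3 libraries per group, for the 13 named genes whose change differed between the strains. The lysozyme gene ilys-2 lies at 6.43 in N2 and at -0.01 in daf-2 worms.

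Worms with the daf-2 allele were followed over the same ages, and few N2 changes differed from theirs. In daf-2 worms 40.2% of genes were called from day 1 to day 11: 3715 genes rose (22.2%) and 3005 fell (18%). The test of the difference between the strains' changes called 58 genes (0.347%), 44 with the larger value in N2 (0.264%) and 14 with the smaller (0.0838%), and 49 of them (0.293%) had also been called in N2. That count rests on single libraries: it lay between 19 and 30 without any one of libraries 1 and 2 of N2 day 1, N2 day 11 and daf-2 day 11 or any daf-2 day 1 library, was 95 without N2 day 1 library 3, and was 260 with the block. Of the 41 families none had more than 1 such gene by edgeR. The pals genes, for example, rose in 24 of 34 cases in daf-2 worms and the proton pump fell in 18 of 21.

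Among the genes that did differ, several rose in N2 alone or more strongly there. The lysozyme gene ilys-2 had a mean of 0.294 CPM at day 1 and 0.299 CPM at day 11 in daf-2 worms, and the difference between the strains' changes was 6.44 ± 1.19 (adjusted p = 0.0187). It passed in 7 of the 12 fits that left out a library (largest adjusted p among these = 0.0798). The fatty acid- and retinol-binding protein gene far-3 rose in N2, from 16.8, 23.1 and 45 CPM to 239.5, 62.7 and 250.2 CPM, and fell in daf-2 worms, from 76.5, 78.3 and 228 CPM to 44.9, 23.3 and 38.1 CPM. Its difference, 4.55 ± 0.71 (adjusted p = 0.00648), passed in all 12 of those fits. So did those of the insulin-like peptide gene ins-7 (4.13 ± 0.71, adjusted p = 0.0132) and the glucuronosyltransferase gene ugt-18 (3.27 ± 0.54, adjusted p = 0.00755). Levels of ins-7 were 1.13, 2.11 and 2.81 CPM and then 63.5, 55.9 and 68.3 CPM in N2, and 1.09, 0.695 and 0.548 CPM and then 0.954, 0.236 and 2.97 CPM in daf-2 worms. The intestinal filament gene ifb-2 fell in both strains, by less in N2 (-1.30 ± 0.15) than in daf-2 worms (-2.92 ± 0.17; difference 1.62 ± 0.22, adjusted p = 0.00448), and passed in all 12 fits. In a fit of the 4 compared groups alone ugt-18 (adjusted p = 0.0467) and ifb-2 (adjusted p = 0.0467) still passed, and ilys-2 (adjusted p = 0.0965), far-3 (adjusted p = 0.0693) and ins-7 (adjusted p = 0.148) did not.

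Some genes fell in N2 and did not pass in daf-2 worms. The purine synthesis gene atic-1 was at 80.8, 66.5 and 92.2 CPM and then 28.3, 29.5 and 25.8 CPM in N2, and at 91.1, 119.8 and 98.2 CPM and then 108, 127 and 96.3 CPM in daf-2 worms (difference -1.62 ± 0.31, adjusted p = 0.0245). The fatty acid elongase gene elo-6 (difference -1.78 ± 0.38, adjusted p = 0.043) and pcbd-1, for recycling of the cofactor tetrahydrobiopterin (difference -1.28 ± 0.27, adjusted p = 0.0378), gave the same direction. These differences passed in 4, 4 and 3 of the 12 fits without a library, with adjusted p up to 0.0787, 0.127 and 0.132 among these. In the fit of the compared groups alone atic-1 passed (adjusted p = 0.0344), and elo-6 (adjusted p = 0.229) and pcbd-1 (adjusted p = 0.202) did not.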

How the data were processed

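RNA of whole N2 and daf-2 worms was measured in 24 libraries. Reads were aligned and quantified with STAR 2.7.0e and RSEM 1.3.1 against WBcel235 (ce11), per the submitters' processing notes. The authors deposited expected counts per gene, which were rounded to whole numbers here. RSEM divides reads among near-identical copies, so such genes are uncertain, and the strand setting of the counting is not given in the sources used here. Of 46904 identifiers, 46817 were found in the Ensembl 115 annotation. Among the 3 libraries of N2 day 1 and the 3 of N2 day 11, no pair of the same age agreed within sampling noise, and other pairs were not compared.

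All 24 libraries entered 1 fit with 8 group means (edgeR 4.0.16 under R 4.3.3, filterByExpr, TMM scaling, quasi-likelihood test, Benjamini-Hochberg adjustment over 16698 genes, threshold 0.05). The fit was also run on simulated data drawn without an effect of replicate number. That run cannot check the fit where libraries of the same number deviate together. Other work used limma 3.58.1, DESeq2 1.42.0, pandas 2.3.3 and scipy 1.17.1. Libraries of the same number deviated together in the 2 groups (r = 0.323, 0.156 and 0.199 for numbers 1, 2 and 3), which was read as a pairing by number. Values are from the fit without such a block unless another setting is named, and a fit with the replicate number as a block was run as an alternative. Others were RLE and upper-quartile scaling, library size alone, ribosomal RNA genes left out, other filters, the compared groups alone, DESeq2, and each library left out.

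The comparison, the gene lists and the rules were chosen with earlier results of these data known. Genes were named by rule: the 12 largest rises and 12 largest falls with a mean of at least 10 CPM and no overlap, up to 4 members per list with at least 5 CPM, the 6 largest gains and losses in CPM, the 2 largest changes per non-coding type and direction, and up to 6 strain differences per direction. Some so named were left out to keep each family to a few examples. Genes outside the rule (among them daf-1, daf-7, pals-5, pals-22, nhr-68, unc-32 and gcy-8) were named for their role after their values were seen, and their alternatives, like those of the strain differences, list bounds and chromosome shares, were added after seeing the data. Bounds against 3 counts cover counting error only.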

Additional observations from a re-analysis of the deposited data

Results flagged for a closer look

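The change from day 1 to day 11 differed between N2 and daf-2(e1370) worms in 13 named genes by edgeR's test of the difference (adjusted p below 0.05). Each value is the N2 log2 change minus the daf-2 log2 change. It was 6.44 for the lysozyme gene ilys-2, 4.55 for far-3, 4.13 for ins-7 and 3.27 for ugt-18. It was 2.84 for cpt-4, 2.002 for the non-coding gene Y53F4B.45, 1.75 for the peptide transporter gene pept-1, 1.62 for ifb-2 and 1.50 for the glutamate-gated chloride channel gene glc-1. Negative differences were -1.88 for the collagen gene col-179, -1.78 for elo-6, -1.62 for atic-1 and -1.28 for pcbd-1. Those of cpt-4, pept-1, glc-1 and col-179 passed in 2 of the 12 fits that each left out a library, and that of Y53F4B.45 in 8. In the fit of the compared groups alone cpt-4, pept-1, glc-1, col-179 and Y53F4B.45 did not pass (adjusted p from 0.0828 to 0.233).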

How the results depend on the processing

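Counts of genes higher, lower and changed at least 2-fold in N2 stayed within 1.5 times under the alternatives run, and every call shared with another setting had the same direction. Of 3280 values of the 205 genes named by rule, 3187 kept their call, 93 lost it and none reversed. Of 1312 list counts, 186 moved by more than 1.5 times. The number of genes differing between strains (58) was 18 in the fit of the compared groups only, 260 with the replicate block, 135 without the libraries numbered 3, 171 with DESeq2, and 19 to 95 when 1 library was left out. With the replicate block the calls were 3854 for day 4 against day 1 (1516 without it), 7148 for day 7 against day 1 (4324), 2288 for day 7 against day 4 (402) and 2489 for day 11 against day 7 (511). The cause was not tested. Besides the counts given with the block in the report, the block ended no call of a gene named by rule. Promoter motifs were not run. Precision is limited by 3 libraries per group and, for chemoreceptors and other scarce genes, by depth.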
